A study of Mus musculus with 79 samples.

Results

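The oxygen response of the wild-type mouse liver was compared between a light-dark regimen and constant darkness. All 16 liver libraries of the light-dark count table and all 16 wild-type liver libraries of the constant-dark table were taken, 32 of the 79 libraries of the series, and only genes listed in both tables were used (10696 genes, of which 9497 had enough counts to be tested). The mice were C57BL/6, wild type and 3 months old, and every mouse had spent 2 weeks on a 12 h light and 12 h dark cycle. Constant-dark mice were then moved to darkness 2 days before the experiment. Each mouse was placed in a sealed cage with flowing gas, 6% oxygen or 21% oxygen as the air control, for 4 h, and was killed at the end of that exposure. Exposures ran from 4 to 8 h or from 16 to 20 h of the cycle, in zeitgeber time (ZT, counted from lights on) in light-dark mice and in circadian time (CT, the same clock running free) in constant darkness. With 12 h of light from lights on, light-dark exposures from 4 to 8 h fell in the light. Those from 16 to 20 h fell in the dark, as did all constant-dark exposures. The 8 groups held 4 mice each, the sex of the mice is not given in the sources used here, and none of these mice carried a mutation or a transgene. The response was the 6% minus 21% difference in each regimen, averaged over both times, and the regimen difference was the light-dark response minus the constant-dark response.

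At low oxygen the prolyl hydroxylases that mark the hypoxia-inducible factor (HIF) alpha subunits for destruction slow down, HIF accumulates and binds short hypoxia response elements, and genes for glucose uptake, glycolysis and vessel growth are transcribed. The liver also runs a circadian clock, in which Arntl (BMAL1) and Clock drive the Period and Cryptochrome repressors and the REV-ERB receptor Nr1d1, and this clock and the daily rhythms of feeding and glucocorticoids set the level of many hepatic transcripts by the hour. In constant darkness the clock runs on without its light cue, so the regimens share the clock but not the light cue. During the exposure itself the light differed only at the earlier time, since mice of both regimens were in the dark at the later time.

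Library totals ran from 3.01 to 6.74 M counts in light-dark mice (median 4.21) and from 1.65 to 2.97 M in constant-dark mice (median 2.14), so constant-dark values carry more counting error. Every light-dark library belongs to 1 table and every constant-dark library to the other. Levels between regimens can therefore not be told apart from a shift between the tables. A shift that scales a gene by the same factor at both oxygen levels leaves the regimen difference unchanged. Any other shift between the tables can touch it, and this was not tested. Albumin took 5.32 to 10.1% of counts in the light-dark libraries and 1.26 to 4.67% in the constant-dark ones. The lowest share, 1.26%, came from the constant-dark air library A at CT4-8, in which Apoe and not Alb was the top gene. That library stood apart from its group, and for genes named below whose call was lost without it, that value is given beside the call. All 8 hepatocyte markers were measured, at a summed level of 52514 CPM (counts scaled to a common library total) or more in every library. Of 56 exact two-sided permutation tests of library totals, the albumin share and summed markers of 12 cell types, 6% against 21% oxygen within regimen and time, the smallest p was 0.029, the smallest that 4 against 4 mice allow, and no adjusted p was below 0.49, so groups of this size leave little room for a call. Since these are bulk samples, fewer cells of a type and less RNA per cell cannot be told apart.

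The leading responses to low oxygen moved the same way in both regimens: Igfbp1, Btg2 and the HIF targets Vegfa and Hilpda rose, and the hepatocyte factors Foxa1 and Foxa2 fell, in light-dark and in constant-dark liver. In light-dark liver 2287 genes were called (1129 higher, 11.9%, and 1158 lower, 12.2%, at 6% oxygen, together 24.1% of those tested), and in constant-dark liver 1739 (877 higher, 9.23%, and 862 lower, 9.08%, together 18.3%), at a Benjamini-Hochberg adjusted p under 0.05 in edgeR's quasi-likelihood test. Of these, 1017 genes were called in both regimens in the same direction (10.7% of those tested), 537 higher and 480 lower, and only 4 were called in opposite directions. The 1017 genes made up 44.5% of the light-dark calls and 58.5% of the constant-dark calls. Over all tested genes 68.7% had the same sign in both regimens, against 89.5% of the light-dark calls and 92.3% of the constant-dark calls. Across the 9497 genes the log2 responses of the regimens correlated at r = 0.75, a description only, since genes are not independent replicates and libraries within a regimen share a table. Among the 1017 genes the median absolute log2 fold change was 0.83 in light-dark and 0.85 in constant-dark liver. Of them, 498 were larger in light-dark and 519 in constant-dark liver. These genes were picked by a call in both regimens, so the like sizes follow in part from that choice.

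A response was taken to repeat within 2-fold where the gene was called in both regimens in 1 direction and the 95% interval of its regimen difference lay between -1 and 1 on the log2 scale. This held for 739 genes (7.78% of those tested), 371 rises and 368 falls, while 278 further genes moved in 1 direction in both regimens but with an interval that reached past 2-fold. At the edge of this rule, Nfe2l2 lay just inside (interval -0.998 to 0.55) and Parp14 just outside (interval -1.01 to 0.14). A call in 1 regimen alone rarely meant a shown difference. Of 1266 genes called only in light-dark liver, 9 had a called regimen difference, 845 had an interval within 2-fold, and 414 had neither (a small difference can be both called and within 2-fold). Of 718 genes called only in constant-dark liver, 4 had a called regimen difference and 474 had an interval within 2-fold.

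**Figure D1:**
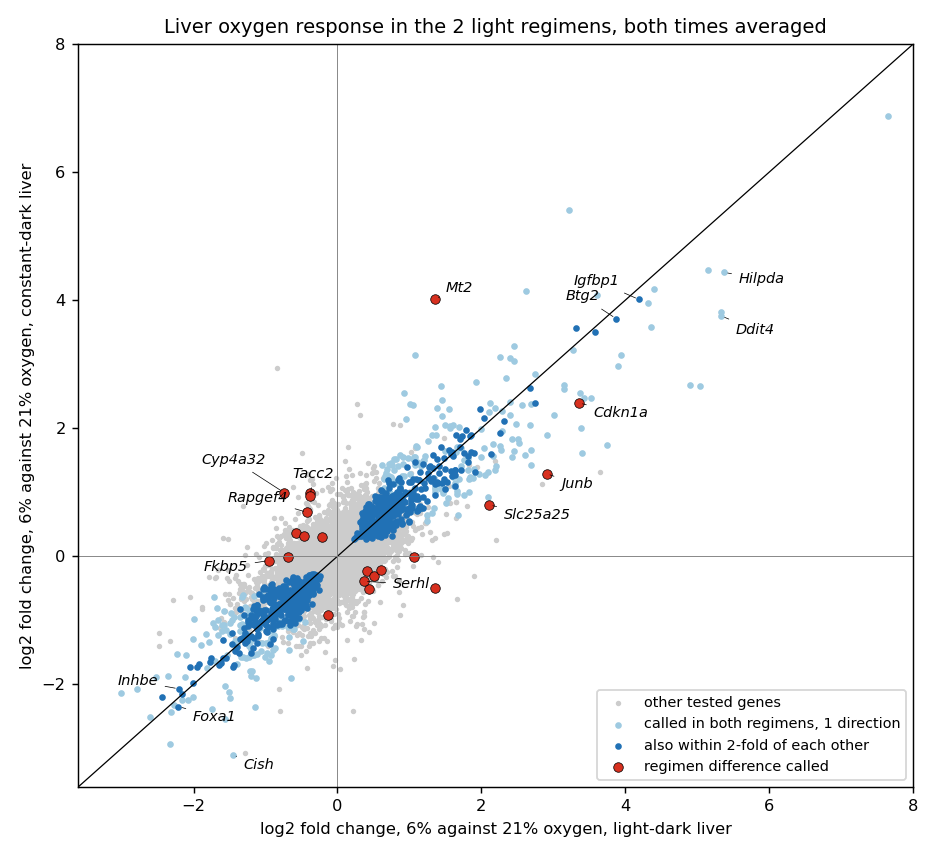
Each point is 1 tested gene, with its log2 fold change at 6% against 21% oxygen in light-dark liver on the x axis and in constant-dark liver on the y axis, both averaged over the 2 times (16 mice a regimen). Light blue points were called in both regimens in 1 direction. Dark blue points also repeat within 2-fold (739 genes) and lie along the diagonal of equal responses. The 21 red points have a called regimen difference and lie off the diagonal, Mt2 the farthest. The places of the dark blue and red points follow largely from how these genes were picked.

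The leading repeated rises were Igfbp1, Btg2, Rpph1, Snhg3, Ifrd1, Pim3, Klhl25 and Cirbp, each up by at least 2.04 on the log2 scale in both regimens. Igfbp1 encodes an insulin-like growth factor binding protein that the liver secretes in fasting and hypoxia. Its light-dark level was 179, 98.5, 304 and 191 CPM in air and 5969, 7315, 8107 and 4494 at 6% oxygen at ZT4-8, and 719, 355, 917 and 630.4 against 5752, 4177, 8869 and 7175 at ZT16-20. In constant darkness it was 65.0, 66.0, 88.9 and 113 in air against 3156, 4487, 2926 and 2529 at CT4-8, and 302, 498, 815 and 639 against 4224, 3523, 4303 and 2940.5 at CT16-20. Every low-oxygen library was above every air library of its own regimen and time, and air levels were higher at 16-20 h than at 4-8 h in both regimens. The log2 response was 4.19 (SE 0.22, adjusted p = 7.2e-13) in light-dark and 4.01 (SE 0.23, adjusted p = 3.3e-12) in constant-dark liver, and the regimen difference was 0.18 (95% interval -0.48 to 0.83).

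Btg2, an antiproliferative gene that p53 and early growth signals induce, rose by 3.87 and 3.71. It stood at 7.91, 8.32, 11.2 and 7.36 CPM in air and 56.2, 169, 123 and 164 at low oxygen at ZT4-8, and at 3.36, 11.5, 11.9 and 8.60 and 88.1, 149, 95.9 and 107 at CT4-8. Low-oxygen and air libraries did not overlap in either regimen at either time, and the regimen difference was 0.16 (95% interval -0.62 to 0.93). Ifrd1, a transcriptional co-regulator that stress induces, was the most closely matched of the 8, with rises of 2.68 and 2.63 and a regimen difference of 0.05 (95% interval -0.24 to 0.35). Pim3, a serine/threonine kinase, rose by 2.75 and 2.40, and Klhl25, an adaptor of a cullin ubiquitin ligase, by 2.31 and 2.11. The noncoding RNAs Rpph1, the RNA of ribonuclease P, and Snhg3, a host of small nucleolar RNAs, rose by 3.58 and 3.31 in light-dark liver and by 3.50 and 3.57 in constant darkness. Cirbp, a cold-inducible RNA-binding protein, rose by 2.04 and 2.16.

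The promoters of the 2 leading repeated rises are shown because both moved together in all 4 settings. Each is the 250 bases before the RefSeq start site (GRCm38.p6), written 5′ to 3′ on the gene's strand. Igfbp1 lies on the plus strand at chr11:7197537-7197786 and Btg2 on the minus strand at chr1:134079156-134079405. Capitals mark, on either strand, the hypoxia response cores ACGTG and GCGTG and, in Btg2 only, the cAMP response core TGACG.
Igfbp1: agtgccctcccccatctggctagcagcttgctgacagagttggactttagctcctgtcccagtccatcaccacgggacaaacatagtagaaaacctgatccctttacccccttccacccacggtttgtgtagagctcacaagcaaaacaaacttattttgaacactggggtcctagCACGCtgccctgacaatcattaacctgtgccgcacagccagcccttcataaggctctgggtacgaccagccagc
Btg2: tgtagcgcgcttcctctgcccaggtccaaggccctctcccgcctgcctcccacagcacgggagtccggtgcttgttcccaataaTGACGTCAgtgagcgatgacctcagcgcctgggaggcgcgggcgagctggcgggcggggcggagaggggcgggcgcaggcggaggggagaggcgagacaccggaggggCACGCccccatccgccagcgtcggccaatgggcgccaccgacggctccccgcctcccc
Each window held 1 match to GCGTG, none to ACGTG and none to the E-box CACGTG, and Btg2 held 2 overlapping TGACG cores. Matches of this length are common. Among 7325 tested genes with a RefSeq promoter (the first listed start site of each), 57.7% held ACGTG or GCGTG on either strand, against 62.9% of 420 promoters of repeated rises, 52.9% of 380 promoters of repeated falls and 9 of 18 promoters of genes with a called regimen difference. ACGTG alone, which also sits inside CACGTG, was in 22.7% of all, 30.2% of the repeated rises and 18.9% of the repeated falls. These are counts of letters with no test.

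Many HIF targets rose in both regimens. Of 29 measured HIF targets outside glycolysis, 17 rose and 1 fell in light-dark liver and 18 rose and 0 fell in constant darkness, 15 rose in both, and the list's median log2 response was 0.84 and 0.63, beside medians of 0.00 over all tested genes. Among all tested genes, 11.9% rose in light-dark and 9.23% in constant-dark liver. The HIF target list held 0 called regimen differences when both times were averaged, but only 5 of the 15 that rose in both repeated within 2-fold. Vegfa, the vessel growth factor, was 102, 82.5, 112 and 132 CPM in air and 254, 334, 349.6 and 275 at 6% oxygen at ZT4-8, and 118, 108, 117 and 121 against 171, 299, 229 and 242 at CT4-8. At 16-20 h it was 94.3, 103, 94.6 and 112 against 273, 348, 328 and 234 in light-dark and 122, 140.3, 112 and 108 against 339, 293, 251 and 309 in constant-dark liver. All 4 settings were without overlap, the responses were 1.52 (SE 0.11, adjusted p = 2.0e-13) and 1.16 (SE 0.11, adjusted p = 4.0e-10), and the response repeated within 2-fold.

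Hilpda, which blocks triglyceride breakdown at the lipid droplet, responded strongly in both regimens. Its low-oxygen levels were 361, 379, 773 and 563 CPM at ZT4-8 and 491, 582, 386 and 502 at ZT16-20, against 51.0, 158, 98.3 and 106 at CT4-8 and 339.8, 238, 274 and 219 at CT16-20, while every air library stood between 4.37 and 17.6 CPM. The responses were 5.37 (SE 0.21, adjusted p = 3.9e-17) and 4.43 (SE 0.25, adjusted p = 2.9e-14), and the regimen difference of 0.94 (95% interval 0.28 to 1.60, adjusted p = 0.23) was not called, with an interval that spans both a small and a more than 2-fold difference. Ddit4, an inhibitor of mTORC1 signalling, rose by 5.33 and 3.75, with a regimen difference of 1.58 (95% interval 0.09 to 3.07, adjusted p = 0.37). Its spread at ZT16-20 was wide: low-oxygen library D stood at 35.7 CPM and its 3 companions between 288 and 368, and air library C at 27.6 against at most 4.87 in its companions. Ppp1r3c, which targets a phosphatase to glycogen, rose by 1.64 (adjusted p = 3.6e-05) in light-dark liver and was 0.61 (adjusted p = 0.15) in constant darkness, with a regimen difference of 1.04 (95% interval 0.24 to 1.83, adjusted p = 0.26) that was not called. Bhlhe40, a repressor that HIF induces and that acts on the clock, rose by 2.42 and 1.56. Hif1a itself, whose protein is regulated by breakdown, was 0.01 (adjusted p = 0.98) in light-dark and 0.27 (adjusted p = 0.57) in constant-dark liver, and neither was called.

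Glucose uptake and glycolysis genes followed the same pattern, with 9 of 12 measured members higher in light-dark liver, 8 of 12 in constant darkness, 8 in both, and 0 lower in either. Their median response was 0.69 and 0.67. Beside these counts and those of the fasting genes below, 11.9% of all tested genes rose in light-dark and 9.23% in constant-dark liver. Falls made up 12.2% and 9.08%, and 10.7% were called in both regimens in 1 direction. Slc2a1, the glucose transporter GLUT1, rose by 1.89 and 1.61 and repeated within 2-fold, as did the glycolytic enzymes Pfkl (1.10 and 0.71) and Tpi1 (0.66 and 0.40). Gpi1, another glycolytic enzyme, rose by 0.58 in light-dark liver and was 0.23 (adjusted p = 0.36) in constant darkness, and its regimen difference of 0.35 (95% interval -0.12 to 0.82) was not called. Without the library that stood apart the constant-dark response of Gpi1 was 0.42 (adjusted p = 0.026), which was called. Of 16 measured gluconeogenesis and fasting genes, 9 rose in each regimen, the same 9 in both, with Pdk4, the kinase that shuts off pyruvate dehydrogenase, at 2.39 and 3.10 and the insulin receptor substrate Irs2 at 2.45 and 1.64. Pck1, the gatekeeper enzyme of gluconeogenesis, was 0.01 (adjusted p = 0.96) and -0.12 (adjusted p = 0.56) and was called in neither regimen.

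The leading repeated falls were Foxa1, Rsrp1, Inhbe, Zfp809, Cyp2d37-ps, Irf1, Ccdc117 and Tmem25. Foxa1, a pioneer transcription factor of hepatocytes, was 21.9, 21.7, 25.3 and 12.4 CPM in air and 3.46, 6.02, 4.62 and 2.95 at low oxygen at ZT4-8, and 14.6, 18.3, 11.9 and 18.7 against 2.22, 0.540, 1.96 and 3.50 at CT4-8. At 16-20 h it was 26.2, 36.5, 11.9 and 27.4 against 6.85, 3.37, 4.94 and 7.31 in light-dark and 30.7, 13.8, 21.5 and 15.8 against 6.32, 7.68, 5.10 and 3.86 in constant-dark liver. No air library overlapped a low-oxygen library of its setting, and the responses were -2.21 (SE 0.23, adjusted p = 9.4e-10) and -2.35 (SE 0.30, adjusted p = 5.1e-08). Its relative Foxa2 fell too, by 2.78 and 2.08, with a regimen difference of -0.71 (95% interval -1.29 to -0.12, adjusted p = 0.29). Of 19 measured hepatocyte transcription factors, 5 fell in light-dark and 4 in constant-dark liver, 4 in both, and 0 rose in either. Among all tested genes, 12.2% fell in light-dark and 9.08% in constant-dark liver.

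Rsrp1, an arginine- and serine-rich nuclear protein, fell to a narrow range. It stood at 198, 221, 199 and 169 CPM in air and 43.2, 30.5, 42.2 and 52.6 at low oxygen at ZT4-8, and at 186, 196, 144 and 170.3 and 48.2, 40.0, 51.8 and 52.9 at CT4-8. The low-oxygen libraries of both regimens and times all lay between 30.5 and 62.8 CPM, below all air libraries, and the regimen difference was -0.24 (95% interval -0.54 to 0.06). Inhbe, an activin subunit that hepatocytes secrete, fell by 2.20 and 2.07, and Irf1, an interferon-induced transcription factor, by 1.44 and 1.70. Zfp809, a zinc finger repressor of retroviral elements, fell by 1.76 and 1.59, and Ccdc117 by 1.40 and 1.42. Tmem25 fell by 1.59 and 1.30. Cyp2d37-ps is a pseudogene of a family of near-identical cytochromes P450, so its fall of 1.46 and 1.73 is uncertain, as counts can be shared with its relatives.

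**Figure D2:**
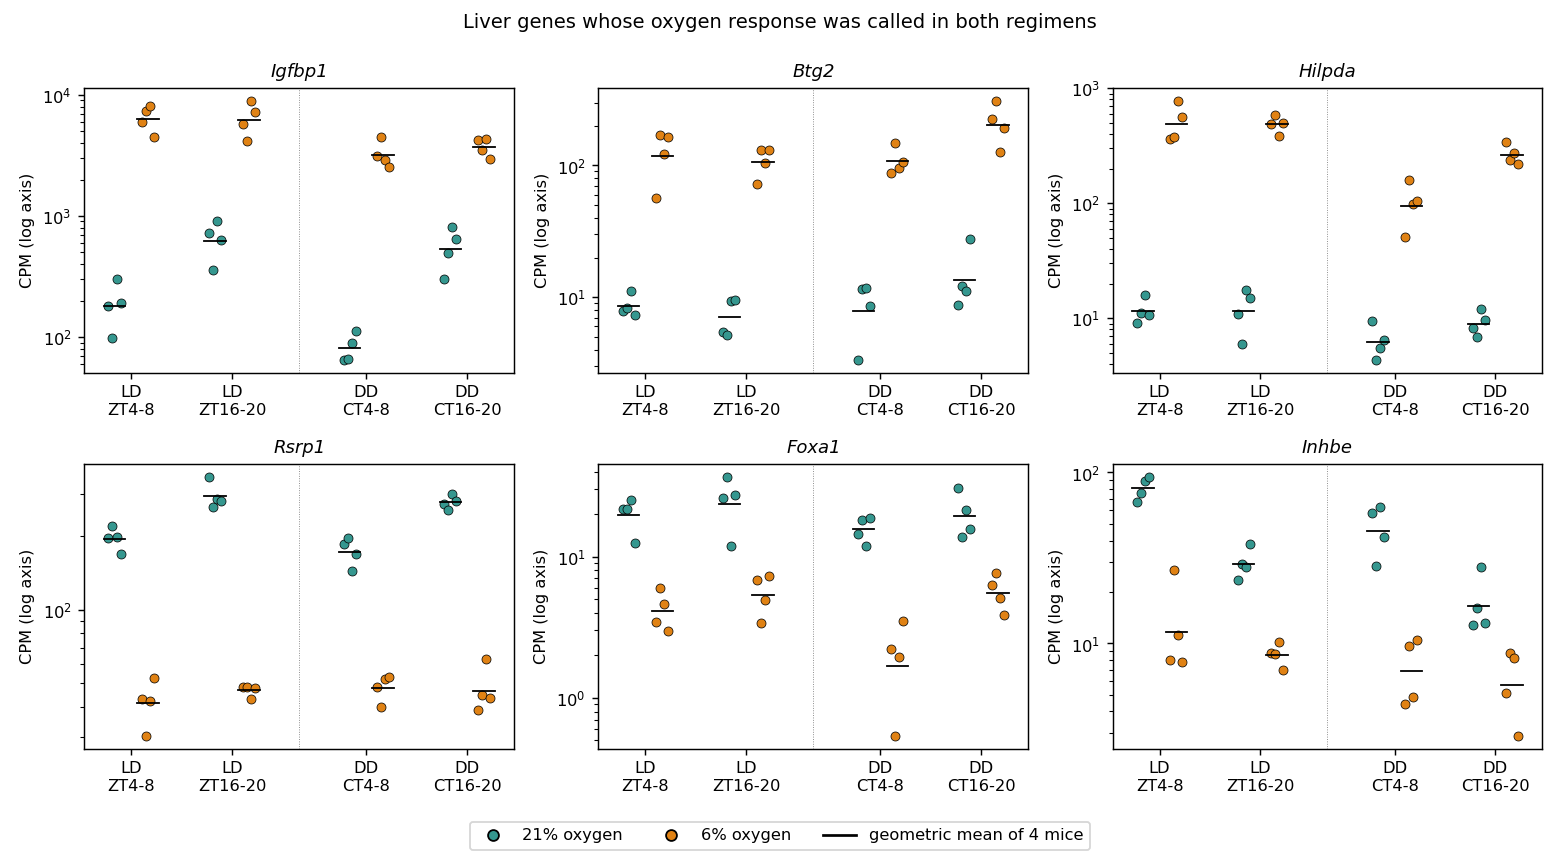
CPM on a log axis for 6 genes called in both regimens in the same direction, by light regimen (LD light-dark, DD constant dark) and time, with 1 point per mouse (4 a group) and a line at the geometric mean. Igfbp1, Btg2 and Hilpda were higher and Rsrp1, Foxa1 and Inhbe lower at 6% oxygen in all 4 settings. Hilpda reached lower levels at 6% oxygen at CT4-8 than at ZT4-8, and for levels the regimen and the table cannot be told apart.

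A regimen difference was called for few genes, which does not show that the other genes responded alike. With both times averaged, 21 of 9497 genes (0.221%) had a called regimen difference, 11 positive (light-dark response above the constant-dark one) and 10 negative, and 1195 genes had an unadjusted p under 0.05. Of the 21 genes, 4 were called in both regimens in 1 direction with unequal size, 4 in both in opposite directions, 9 in light-dark liver alone and 4 in constant-dark liver alone. The precision bounds what this comparison can show: the 95% interval of the regimen difference reached to either side by a median of 0.49 on the log2 scale over all tested genes, and 0.39 over the 5938 genes that averaged 10 CPM or more, of which 91.4% had an interval within 2-fold. The count itself was fragile. It was 93 with DESeq2 (62 positive and 31 negative), 9 with a replicate block, and from 2 to 36 when 1 library was left out. Of the 20 differing genes with an established symbol (a placeholder symbol makes up the 21), Rapgef4 and Tacc2 alone were called in all 32 fits that left out 1 library, and all 20 kept their sign in each of those fits. Without the constant-dark air library that stood apart, 15 of the 20 were called.

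Rapgef4 fell in light-dark liver and rose in constant darkness, and Tacc2 rose in constant darkness while its light-dark average was not called. Rapgef4 (chromosome 2, 71981240 to 72257474, mm10) encodes EPAC2, a cAMP-activated exchange factor for the small GTPase Rap. In light-dark liver it was 170.4, 161, 201 and 158 CPM in air and 154, 95.3, 140.4 and 116 at 6% oxygen at ZT4-8, and 219.6, 165, 195 and 214 against 162, 122, 140.2 and 179 at ZT16-20. In constant darkness it was 96.4, 155, 148 and 144 against 211, 262, 275 and 261 at CT4-8, and 153, 146, 160.1 and 88.7 against 203, 208, 236 and 117 at CT16-20. The low-oxygen libraries lay below the air libraries at ZT4-8 and above them at CT4-8 with no overlap, and the groups overlapped at ZT16-20 and CT16-20. It fell by 0.42 in light-dark (adjusted p = 0.016) and rose by 0.69 in constant-dark liver (adjusted p = 2.4e-04), and the regimen difference was -1.11 (95% interval -1.49 to -0.73, adjusted p = 0.0039). Without the constant-dark air library that stood apart it was -1.04, adjusted p = 0.0037.

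Tacc2 (chromosome 7, 130577438 to 130764785, mm10) encodes a coiled-coil protein of the centrosome. It stood at 41.0, 32.8, 26.1 and 43.8 CPM in air and 15.6, 17.0, 19.6 and 16.4 at low oxygen at ZT4-8, a fall without overlap. At CT4-8 it stood at 14.6, 13.9, 11.4 and 17.8 in air and 36.0, 38.4, 34.2 and 40.2 at low oxygen, a rise without overlap. At 16-20 h the values were 21.0, 11.2, 13.5 and 30.2 against 26.3, 18.2, 29.4 and 20.0 in light-dark and 15.3, 18.7, 18.5 and 20.2 against 24.1, 20.7, 34.9 and 26.5 in constant-dark liver. Averaged over times the response was -0.38 (adjusted p = 0.067) in light-dark and 0.95 (adjusted p = 5.2e-05) in constant-dark liver, with a regimen difference of -1.32 (95% interval -1.78 to -0.87, adjusted p = 0.0039).

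Cyp4a32 and Serhl were, like Rapgef4, called in opposite directions. Cyp4a32, a fatty acid hydroxylase of a family with near-identical members whose counts can be shared, fell by 0.74 and rose by 1.00. Its low-oxygen values were 179.6, 94.0, 131 and 170.1 CPM at CT4-8 but 44.6, 112, 170.3 and 31.8 at CT16-20, where they fell on both sides of the air values of 54.7, 67.7, 57.7 and 67.2. Its regimen difference was -1.74 (95% interval -2.51 to -0.96, adjusted p = 0.047), and -1.66, adjusted p = 0.070 without the library that stood apart. Serhl, a serine hydrolase-like gene, rose by 0.37 and fell by 0.39, with a regimen difference of 0.76 (95% interval 0.42 to 1.09, adjusted p = 0.044).

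Several genes rose more in light-dark liver. Cdkn1a, the p21 inhibitor of cell cycle kinases that p53 and glucocorticoids induce, was 6.98, 15.0, 11.2 and 7.68 CPM in air and 316, 214, 316 and 304 at 6% oxygen at ZT4-8, and 11.8, 22.3, 16.1 and 17.2 against 368, 217, 255 and 262 at CT4-8. At 16-20 h it was 68.7, 79.6, 124 and 78.7 against 339.6, 334, 339.7 and 291 in light-dark and 110.0, 155, 177 and 129 against 227, 262, 259 and 232 in constant-dark liver. At 4-8 h the libraries of the 2 regimens overlapped in level at both oxygen levels. At 16-20 h all 4 light-dark low-oxygen libraries lay above the constant-dark ones, while 3 of 4 constant-dark air libraries lay above all light-dark air libraries. Levels set side by side in this way cannot be told apart from a shift between the tables. The rise was 3.36 (SE 0.14, adjusted p = 1.1e-19) against 2.39 (SE 0.14, adjusted p = 2.9e-15), with a regimen difference of 0.96 (95% interval 0.55 to 1.37, adjusted p = 0.039). Slc25a25, a mitochondrial carrier of ATP-Mg and phosphate, was 154, 151, 222 and 139 CPM in air and 411, 738, 684 and 768 at low oxygen at ZT4-8, and 467, 167, 171 and 138 against 270.0, 349.5, 289 and 316 at CT4-8. Here the air value of 467 CPM came from the library that stood apart. The regimen difference of Slc25a25 was 1.31 (95% interval 0.78 to 1.84, adjusted p = 0.035) with that library and 1.04, adjusted p = 0.0037 without it.

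Junb, an AP-1 subunit and immediate early gene, also rose more in light-dark liver. At 4-8 h its air levels were 26.1, 34.2, 30.6 and 36.1 CPM at ZT4-8 and 38.7, 39.0, 54.2 and 46.7 at CT4-8, while its low-oxygen levels were 144, 286, 323 and 318 and 36.0, 118, 57.2 and 60.3. The 4 light-dark low-oxygen libraries all lay above the 4 constant-dark ones, though such levels cannot be told apart from a shift between the tables. Junb rose by 2.91 and 1.29, and the regimen difference was 1.62 (95% interval 0.91 to 2.32, adjusted p = 0.046). Without the library that stood apart it was 1.65, adjusted p = 0.063.

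Spsb2, an adaptor of a ubiquitin ligase, rose by 1.06 (adjusted p = 3.2e-06) in light-dark liver and was -0.01 (adjusted p = 0.98) in constant darkness. Its regimen difference was 1.07 (adjusted p = 0.046), and 1.00, adjusted p = 0.063 without the library that stood apart, so the call was lost. Fndc4, a secreted fibronectin domain protein, Esyt1, an endoplasmic reticulum tether, and Tubb4b, a beta tubulin, rose by 0.50, 0.41 and 0.61 in light-dark liver and were -0.31, -0.23 and -0.22 in constant darkness, where none was called. In the air library that stood apart, Fndc4 was at 98.6 CPM and Tubb4b at 202, against at most 59.6 and 107 in its 3 companions. Without that library their regimen differences were 0.69, adjusted p = 0.014 for Fndc4 and 0.67, adjusted p = 0.038 for Tubb4b.

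Genes with a negative regimen difference fell in light-dark liver or rose more in constant darkness. Gfra1, a receptor of glial cell line-derived neurotrophic factor, was 141, 158, 129.6 and 130.3 CPM in air and 78.2, 69.8, 78.0 and 82.7 at 6% oxygen at ZT4-8, and 74.0, 100.2, 75.4 and 81.4 against 76.5, 78.3, 101 and 87.9 at CT4-8. It fell by 0.68 in light-dark liver without overlap at either time and was -0.01 (adjusted p = 0.98) in constant darkness, with a regimen difference of -0.68 (95% interval -0.96 to -0.40, adjusted p = 0.035). Smek1, a regulatory subunit of protein phosphatase 4, and Fam47e fell by 0.46 and 0.57 in light-dark liver and were 0.31 and 0.37 in constant darkness, not called. Without the library that stood apart the constant-dark response of Fam47e was 0.45 (adjusted p = 0.024), which was called. Gjb2, the gap junction protein connexin 26, was -0.21 (adjusted p = 0.059) in light-dark liver and rose by 0.30 (adjusted p = 0.0093) in constant darkness (regimen difference -0.51 (adjusted p = 0.047)), where the low-oxygen values of 343, 414, 303 and 347 CPM at CT16-20 stood above air values of 203, 199, 185 and 178. At CT4-8 the order was the other way, just without overlap, 252, 253, 295 and 235 CPM at low oxygen against 338, 295, 299.7 and 323 in air.

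Psme2 and Psme2b were called in opposite directions of the regimen difference, 0.79 for Psme2, an activator subunit of the proteasome, and -1.37 for Psme2b, a near-identical copy. Without the library that stood apart Psme2b was not called (-1.32, adjusted p = 0.070), and it was called under 2 of 6 other settings and in 4 of 32 fits that left out 1 library. At CT4-8 Psme2 went from 80.7, 101, 103 and 108 CPM in air to 35.5, 22.7, 32.8 and 59.5 at low oxygen, while Psme2b went from 8.97, 11.9, 11.01 and 12.3 to 66.5, 42.7, 50.9 and 14.4. The library with the lowest Psme2b level at low oxygen had the highest Psme2 level. With the counts of both symbols summed, an alternative chosen after seeing the data, the regimen difference was 0.26 (95% interval -0.04 to 0.56, adjusted p = 0.48), so neither call was kept for the sum.

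**Figure D3:**
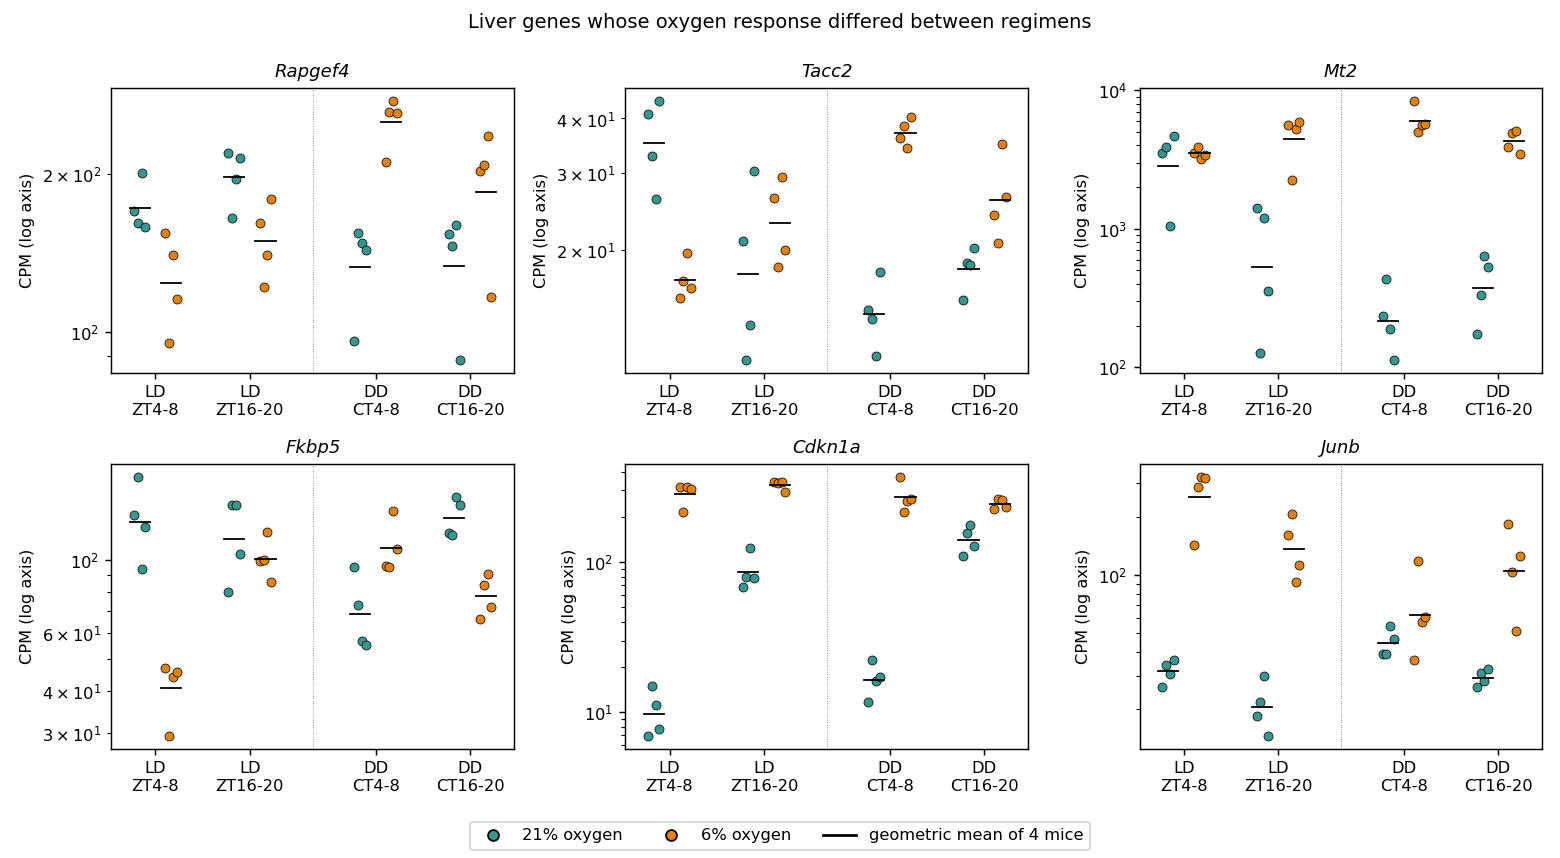
CPM on a log axis for 6 genes with a called regimen difference of the oxygen response, by light regimen (LD light-dark, DD constant dark) and time, with 1 point per mouse (4 a group) and a line at the geometric mean. Rapgef4 and Tacc2 moved down at ZT4-8 and up at CT4-8. Mt2 in air was higher at ZT4-8 than in the other air groups, and the low-oxygen level of Junb was highest at ZT4-8. For levels between LD and DD, the regimen and the table cannot be told apart.

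The metallothioneins Mt2 and Mt1 had the largest regimen differences among the genes named here. Their air levels at 4-8 h stood far apart between the regimens, which for levels cannot be told apart from a shift between the tables. Mt1 and Mt2 encode small cysteine-rich proteins that bind zinc and copper and that metals, glucocorticoids and inflammation induce. Mt2 in light-dark liver was 3541, 3909, 1044 and 4634 CPM in air and 3546, 3914, 3214 and 3429 at 6% oxygen at ZT4-8, and 1422, 128, 1202 and 358 against 5633, 2248, 5285 and 5876 at ZT16-20. In constant darkness it was 236, 432, 190.1 and 114 against 8322, 4963, 5606 and 5743 at CT4-8 and 175, 332, 639 and 528 against 3892, 4888, 5115 and 3437 at CT16-20. Low-oxygen libraries stood at 2248 CPM or more in all 4 settings, and air libraries at 1422 CPM or less in all settings but ZT4-8, where 3 of 4 mice were within or above the range of the low-oxygen libraries. Mt2 rose by 1.36 (adjusted p = 0.011) in light-dark and 4.02 (adjusted p = 1.8e-07) in constant-dark liver. The regimen difference was -2.66 (95% interval -3.77 to -1.55, adjusted p = 0.046), -2.64, adjusted p = 0.058 without the library that stood apart. Mt1 had 2392, 2676, 604 and 3369 CPM in air at ZT4-8 and 361, 431, 211 and 142 at CT4-8, and its averaged regimen difference of -2.07 (95% interval -3.06 to -1.08, adjusted p = 0.071) was not called.

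The Mt2 promoter is shown because Mt2 had the largest called regimen difference. It lies on the plus strand of GRCm38.p6 at chr8:94172368-94172617, the 250 bases before the RefSeq start site, 5′ to 3′. Capitals mark the letters TGCNCNC on either strand, a motif added after seeing the data. This is a looser form of the metal response element core, as it allows any base where the core has A or G.
Mt2: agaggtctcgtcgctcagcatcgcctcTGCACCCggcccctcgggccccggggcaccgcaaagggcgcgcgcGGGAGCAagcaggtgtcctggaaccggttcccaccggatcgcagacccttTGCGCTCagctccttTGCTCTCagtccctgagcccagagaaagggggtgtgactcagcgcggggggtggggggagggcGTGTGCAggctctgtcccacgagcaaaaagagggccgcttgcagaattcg
The window held 5 matches to this looser form, not all of them the core, and 52.4% of the 7325 tested promoters held at least 1.

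Split by time, the regimen difference was called for 130 genes at 4-8 h (1.37%), 71 positive and 59 negative. At 16-20 h it was called for 0 genes, with 663 at an unadjusted p under 0.05 in edgeR, 16 called by DESeq2 and 2 by limma voom. The interval reached to either side by a median of 0.69 at 4-8 h and 0.68 at 16-20 h. Light during the exposure differed between the regimens at 4-8 h only, as both were dark at 16-20 h. The part of this light in the counts at either time was not tested. Tested directly, the regimen difference itself differed between the times for 23 genes (0.242%), 17 of them more positive at 16-20 h and 6 more negative, so for most of the 130 genes a difference between times was not shown. DESeq2 called 261 genes at 4-8 h and 72 for the difference between times, and of the 72 it placed 36 on either side, so the lean in direction was not kept. The 4-8 h count also rested on single libraries: it was 91 without the constant-dark air library that stood apart, 76 of them among the 130, and from 56 to 210 over all libraries left out in turn. At 4-8 h, where these genes lie, the mean hepatocyte measures lay in opposite order in the 2 regimens, though no test passed. The summed hepatocyte markers had a mean of 122224 CPM in air and 106871 at low oxygen in light-dark liver (exact permutation p = 0.23) and of 65314 and 77969 in constant-dark liver (exact permutation p = 0.057). The mean albumin share was 8.61 and 6.67% in light-dark (exact permutation p = 0.086) and 3.31 and 4.15% in constant-dark liver (exact permutation p = 0.14). The constant-dark air mean of 3.31% was pulled down by the library that stood apart, at 1.26%. Its companions B, C and D stood at 4.01, 3.86 and 4.13%, so the opposite order of the albumin share rests largely on that library. The part of these hepatocyte measures in the 4-8 h differences was not tested.

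Fkbp5, a chaperone of the glucocorticoid receptor that glucocorticoids induce, differed between the times by the smallest adjusted p. At 4-8 h it was 136, 178, 93.6 and 126 CPM in air against 47.1, 29.4, 44.2 and 45.6 at 6% oxygen in light-dark liver, and 95.3, 73.2, 56.7 and 55.3 against 95.9, 95.1, 140.4 and 108 in constant-dark liver. At 16-20 h it was 80.0, 146, 146 and 104 against 99.04, 99.9, 122 and 85.7 in light-dark and 121, 119, 155 and 146 against 66.4, 83.7, 90.7 and 71.8 in constant-dark liver. In light-dark liver it fell at ZT4-8 with no overlap, and in constant darkness it rose at CT4-8 with overlapping libraries and fell at CT16-20 with none. The regimen difference was -2.33 (adjusted p = 7.6e-06) at 4-8 h and 0.56 (adjusted p = 0.71) at 16-20 h, and the difference between these was 2.89 (adjusted p = 1.1e-04).

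Por and Usp2 also differed between the times. Por is the reductase that feeds electrons to cytochromes P450 and Usp2 a clock-controlled deubiquitinase. Por was 590.1, 566, 398 and 657 CPM in air and 295, 239, 307 and 275 at low oxygen at ZT4-8, and 381, 416, 572 and 439.6 against 708, 664, 776 and 800.2 at ZT16-20. It thus fell at ZT4-8 and rose at ZT16-20 without overlap, and the response in constant darkness was 0.36 (adjusted p = 0.13) at CT4-8 and 0.37 (adjusted p = 0.14) at CT16-20. The regimen difference of Por was -1.35 (adjusted p = 0.0014) at 4-8 h and 0.34 (adjusted p = 0.83) at 16-20 h, and the times differed by 1.68 (adjusted p = 0.0050). For Usp2 these values were -1.85 (adjusted p = 0.0036), 0.82 (adjusted p = 0.57) and 2.67 (adjusted p = 0.0046). The lipid droplet gene Plin5, an activator of fatty acid use at the droplet, rose at ZT4-8 by 0.82, at ZT16-20 by 0.96 and at CT4-8 by 1.70, and was -0.07 (adjusted p = 0.85) at CT16-20, where its air values of 149, 213, 179 and 136 CPM overlapped low-oxygen values of 134, 175, 179 and 156. Plin5 and Usp2 were chosen after their values were seen.

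Some acute phase genes stood high in the same ZT4-8 air libraries as the metallothioneins. Serpina3n, a secreted protease inhibitor, was 1205, 1398, 718 and 1933 CPM in air and 462, 761, 393 and 430.4 at 6% oxygen at ZT4-8, and 300.4, 715, 483 and 549 against 764, 465, 598 and 561 at CT4-8. Steap4, a metalloreductase, was 849.8, 1111, 474 and 885 against 199.9, 447, 122 and 179 at ZT4-8 and 157, 166, 175 and 143 against 180.2, 112, 112 and 132 at CT4-8. For both genes the 3 highest of the 32 values came from ZT4-8 air libraries A, B and D, and library C, the lowest of that group in Mt1 and Mt2, was its lowest here too. At 4-8 h the regimen difference was -1.58 (adjusted p = 0.026) for Serpina3n, -1.55 (adjusted p = 0.041) for Steap4 and -1.41 (adjusted p = 0.0046) for Serpina3m. These were 3 of 23 measured acute phase genes, beside 1.37% called at 4-8 h over all tested genes, and none was called with both times averaged. Without the constant-dark air library that stood apart, Serpina3n (-1.39, adjusted p = 0.076) and Steap4 (-1.53, adjusted p = 0.10) were not called at 4-8 h, while Serpina3m was (-1.23, adjusted p = 0.0066). The part of these air levels in the regimen differences at 4-8 h was not tested, and for levels the regimen and the table cannot be told apart.

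**Figure D4:**
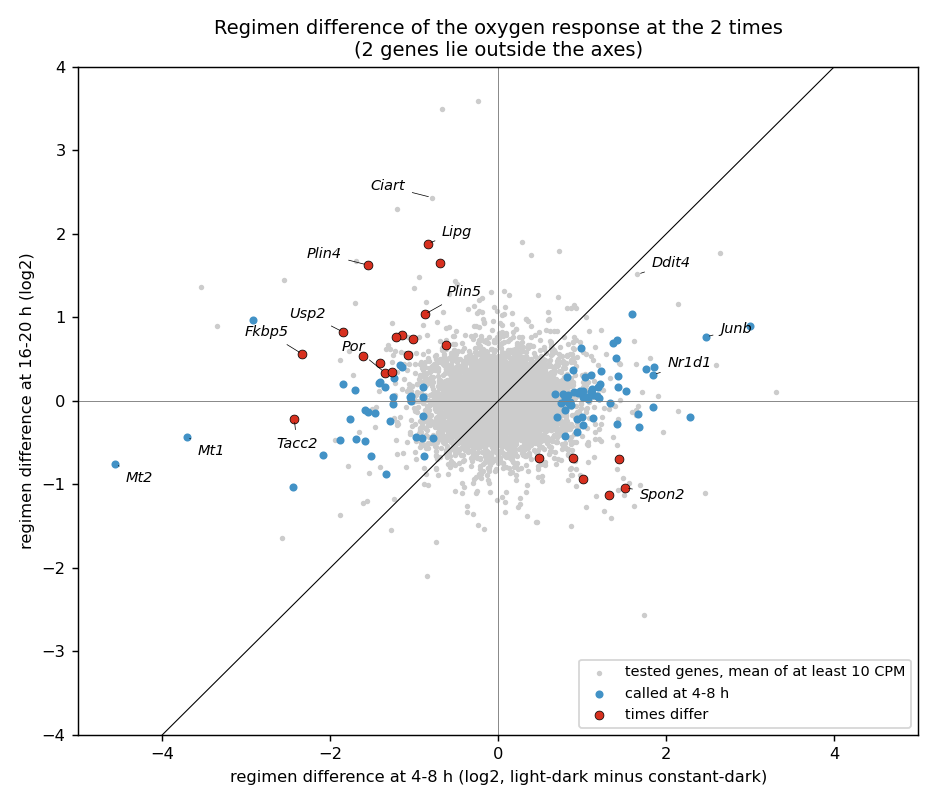
Each point is 1 tested gene that averaged 10 CPM or more, with its regimen difference (light-dark minus constant-dark log2 response) at 4-8 h on the x axis and at 16-20 h on the y axis. Blue points were called at 4-8 h but not between the times, red points differed between the times, and Mup8 and Hamp2 lie outside the axes. Of the 130 genes called at 4-8 h, at any level, 129 lie closer to 0 at 16-20 h. Of the 23 that differed between the times, 22 have opposite signs at the 2 times. Both counts follow largely from how these genes were picked and are no result of their own.

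Several clock genes responded in both regimens, and with both times averaged no core clock gene had a called regimen difference. Ciart, a repressor of BMAL1, was 16.3, 10.4, 4.22 and 14.1 CPM in air and 33.9, 28.7, 32.4 and 22.8 at low oxygen at ZT4-8 and 6.73, 16.7, 14.8 and 9.53 against 38.3, 61.0, 53.3 and 62.1 at CT4-8, with no overlap in either, and rose by 3.37 and 2.55 over both times. Per1, a core repressor that glucocorticoids and cAMP also induce, rose by 1.61 and 1.09, and Per2 was 0.50 (adjusted p = 0.070) and 0.32 (adjusted p = 0.43). Cry1, the cryptochrome repressor, fell by 0.65 and 0.58, though the constant-dark fall was not called without the library that stood apart (-0.38, adjusted p = 0.17), and so it was not shown to repeat there. For Dbp the times went opposite ways. Dbp, a clock-output transcription factor, went from 253, 205, 236 and 229 to 57.0, 39.7, 26.0 and 14.0 CPM at ZT4-8 and from 251, 205, 224 and 183 to 14.4, 90.2, 50.9 and 77.8 at CT4-8, but from 13.4, 11.7, 11.4 and 10.3 to 16.4, 25.8, 20.5 and 45.3 at ZT16-20 and from 8.70, 8.92, 12.1 and 7.47 to 44.6, 43.8, 22.0 and 48.7 at CT16-20. In both regimens it was lower at low oxygen at 4-8 h and higher at 16-20 h with no overlap.

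Nr1d1 was the clock gene with a called difference at 4-8 h besides Bhlhe40. It was 44.5, 34.2, 53.7 and 66.2 CPM in air and 102, 222, 139.8 and 121 at 6% oxygen at ZT4-8, and 89.1, 83.9, 116 and 103 against 54.9, 103, 74.3 and 88.8 at CT4-8. Low-oxygen libraries were above all air libraries at ZT4-8 and overlapped them at CT4-8. The regimen difference was 1.84 (adjusted p = 0.0034) at 4-8 h, 0.31 (adjusted p = 0.96) at 16-20 h and 1.08 (adjusted p = 0.13) averaged. Arntl rose from 0.931, 1.16, 1.41 and 1.14 to 6.05, 8.85, 9.25 and 11.3 CPM at ZT4-8 and went from 4.48, 4.77, 1.27 and 4.92 to 17.2, 5.40, 9.29 and 6.12 at CT4-8. Its regimen difference at 4-8 h of 1.64 (adjusted p = 0.092) was not called. At 16-20 h the response of Arntl had the other sign in both regimens. It was -0.94 (adjusted p = 0.0042) at ZT16-20 and -0.83 (adjusted p = 0.031) at CT16-20. Bhlhe40 differed at 4-8 h by 1.43 (adjusted p = 0.016) and by 0.86 (adjusted p = 0.090) averaged. Of 15 measured core clock genes and repressors, 6 rose and 2 fell in light-dark liver and 4 rose and 1 fell in constant darkness. Over all tested genes 11.9% rose and 12.2% fell in light-dark liver, and 9.23% rose and 9.08% fell in constant darkness.

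Over 35 pathway lists, immediate early genes had the highest median response in both regimens, with 18 of 21 measured members higher in light-dark and 15 of 21 in constant-dark liver, 15 in both and 0 lower in either, and median responses of 2.46 and 1.71. Their median regimen difference was 0.59, beside 0.00 over all tested genes, but Junb alone was called. Dusp1, a MAP kinase phosphatase, was 1.02 (95% interval 0.44 to 1.60, adjusted p = 0.13) and Maff, a small Maf factor, 0.79 (95% interval 0.27 to 1.31, adjusted p = 0.18). Only 3 of the 15 immediate early genes that rose in both regimens repeated within 2-fold. Of 21 measured glucocorticoid-induced genes, 12 rose and 2 fell in light-dark liver and 14 rose and 2 fell in constant darkness, with 3 called regimen differences (Cdkn1a positive, Mt2 and Fkbp5 negative). The integrated stress response had 7 and 6 of 14 measured members higher, among them Gdf15, a stress hormone, at 5.15 and 4.47. The list counts here and below stand beside the shares over all tested genes. These were 11.9% higher and 12.2% lower in light-dark liver, and 9.23% higher and 9.08% lower in constant darkness.

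Fatty acid oxidation and chaperone genes fell or were not called, with 0 called regimen differences in either list when both times were averaged and 1 chaperone higher in constant darkness. Of 31 measured fatty acid oxidation and PPARalpha genes, 11 fell in light-dark and 9 in constant-dark liver, 5 in both, with medians of -0.31 and -0.29. Ppara, the receptor that drives them, was 223, 252, 198 and 238 CPM in air and 76.1, 73.3, 92.7 and 80.8 at low oxygen at ZT4-8 and 74.5, 187, 205 and 183 against 85.9, 120.5, 106 and 125 at CT4-8, where the library that stood apart, A, was the lowest in air. It fell by 1.32 and 0.60, with a regimen difference of -0.71 (95% interval -1.09 to -0.33, adjusted p = 0.096), and -0.59, adjusted p = 0.069 without that library. Cpt1a, which brings fatty acids into mitochondria, fell by 0.57 in light-dark liver and was 0.05 (adjusted p = 0.82) in constant darkness, with a regimen difference of -0.62 (95% interval -0.92 to -0.31, adjusted p = 0.069). Of 19 measured heat shock and chaperone genes, 11 fell and 0 rose in light-dark liver, and 2 fell and 1 rose in constant darkness, with the co-chaperone Hsph1 at -1.002 (adjusted p = 4.0e-05) and -0.15 (adjusted p = 0.61). Hsph1 was 95.4, 89.2, 148 and 68.0 CPM in air and 30.7, 21.2, 21.4 and 33.6 at low oxygen at ZT4-8, against 16.8, 49.3, 37.7 and 47.0 and 20.5, 35.7, 31.8 and 35.4 at CT4-8, and its regimen difference at 4-8 h was -1.58 (adjusted p = 0.024).

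Many lipid synthesis genes rose. Of 25 measured fatty acid and triglyceride synthesis genes, 12 rose in light-dark and 8 in constant-dark liver, the 8 in both, and Srebf1, their main transcription factor, rose by 2.53 and 1.76 with a regimen difference of 0.76 (95% interval 0.35 to 1.18, adjusted p = 0.100). Of 22 measured cholesterol synthesis and uptake genes, 11 and 6 rose, 4 in both. Amino acid transport and tRNA charging genes had 8 and 11 of 24 higher, 8 in both, and 0 and 1 lower, among them the transporter Slc38a2 at 2.26 and 1.93. Ribosomal proteins and oxidative phosphorylation subunits had medians near 0. Of 47 and 46 measured members, 4 and 4 were called in light-dark and 5 and 6 in constant-dark liver, and medians lay between -0.18 and -0.02. Cell cycle genes had median responses of -0.04 and 0.35 and a median regimen difference of -0.50 over 15 measured members, of which Cdkn1a alone had a called regimen difference, while Pcna, the clamp of DNA replication, was -0.09 (adjusted p = 0.61) and 0.60 (adjusted p = 2.2e-04) with a regimen difference of -0.69 (95% interval -1.02 to -0.36, adjusted p = 0.054).

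**Figure D5:**
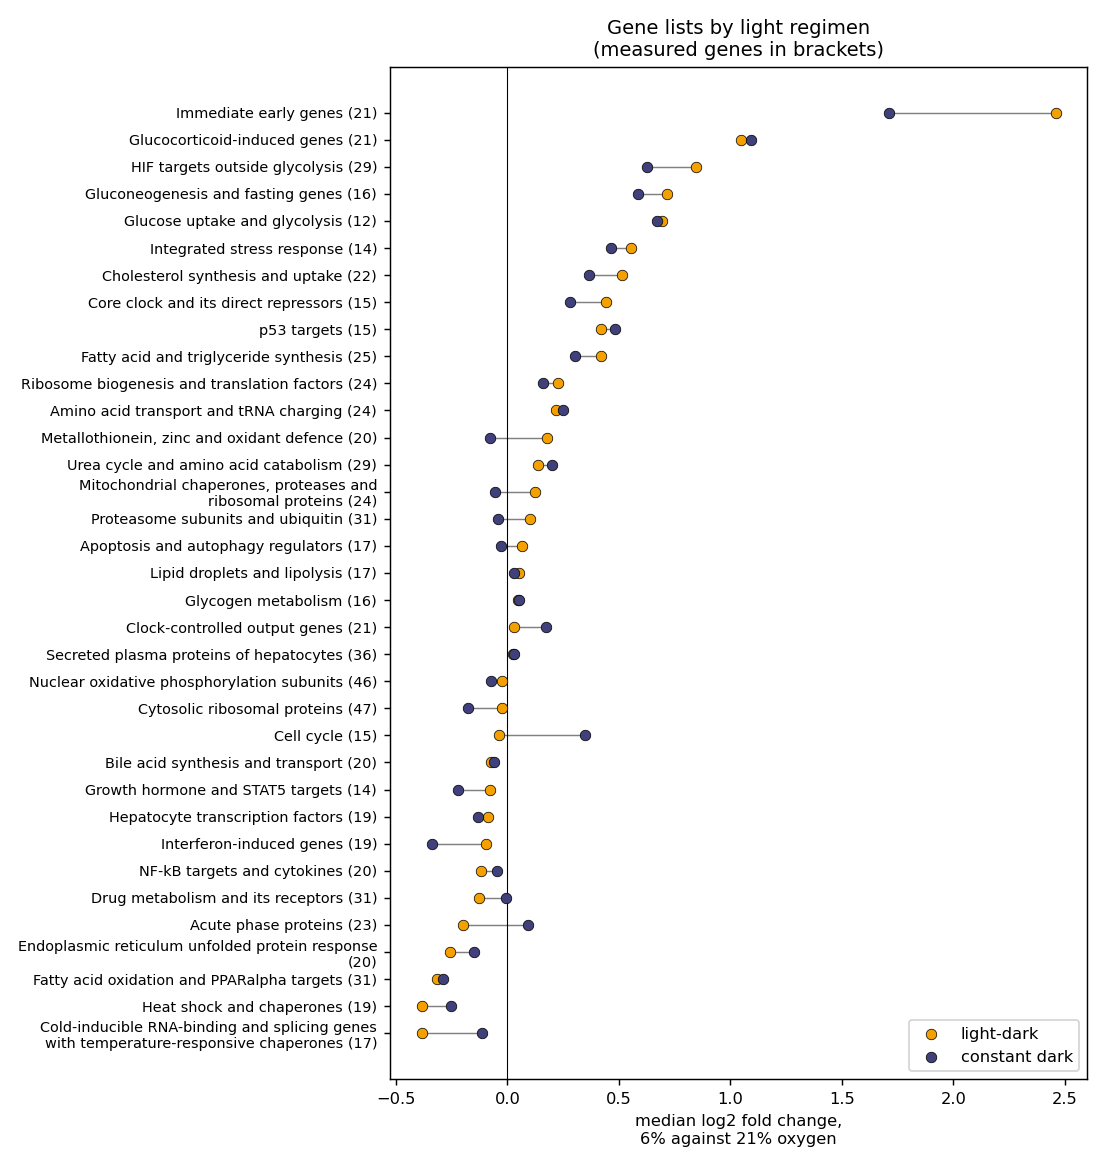
Median log2 fold change at 6% against 21% oxygen over the measured members of each of 35 gene lists, both times averaged, with a point for light-dark and a point for constant-dark liver joined by a line (no error is drawn, since list members are not replicates). Immediate early genes, glucocorticoid-induced genes and HIF targets lie to the right in both regimens. In light-dark liver the heat shock list and a mixed list lie lowest. The mixed list holds cold-inducible RNA-binding genes, splicing genes and temperature-responsive chaperones, and shares Hsph1 with the heat shock list.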

How the data were processed

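Bulk RNA-seq libraries of 32 wild-type livers were used, each taken as 1 mouse. The authors deposited raw counts per gene symbol, 1 column per library, in a light-dark table (11671 genes) and a constant-dark table (10811 genes). Per the submitters' processing notes, reads were handled with bcl2fastq, cutadapt, STAR and HTSeq on mm10. The sources used here name no versions, annotation or strand setting, so reads of overlapping and antisense genes cannot be told apart. The 975 and 115 genes listed in 1 table only took at most 0.0799% and 0.0202% of any library and were left out. Genes counted as tested passed filterByExpr (minimum count 10, minimum total 15).

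All 32 libraries entered 1 edgeR 4.0.16 quasi-likelihood fit (R 4.3.3, TMM scaling, library sizes from the full tables), 8 group means without covariates, with Benjamini-Hochberg adjustment over all 9497 tested genes and a threshold of 0.05. Intervals are 95% Wald intervals of the log2 fold change. CPM values were computed with the same scaling. The procedure was tested on simulated data. Alternatives were RLE scaling, no filter, DESeq2 1.42.0, limma 3.58.1 voom with a spread per regimen, a replicate block, counts thinned to 1647816 per library, and each library left out. Within groups, 0 of 48 pairs of libraries held identical counts, and chi-square divided by its degrees of freedom was 3.13 to 31.4, so none differed by less than sampling noise. The labels name separate samples but not separate mice, so p-values measure the spread between these samples, which may be technical in part.

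The members, the gene lists and the tests were chosen with earlier results of these data known. Genes named averaged 10 CPM or more, carried no placeholder symbol and were called for the regimen difference (up to 12 a direction), called in opposite directions, or among the 8 leading rises and falls that repeat within 2-fold, or up to 4 members of each list by the smallest p of the regimen difference. To these, 12 clock and hypoxia genes were added by name at any level. Of the genes this rule gave, 1 with a called regimen difference, opposite in direction between regimens, is not reported here. Genes of the difference between times fall outside this rule and were chosen after their values were seen, as were the genes just inside and outside the 2-fold rule. Of 9497 tested symbols, 9154 had 1 position in GENCODE vM21, whose coordinates are printed.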

Additional observations from a re-analysis of the deposited data

Results flagged for a closer look

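In 12 of 256 groups of 4 libraries tested by Dixon's gap criterion, 1 library lay far from the others, and chance alone marks about 5% of such groups. Of these, 3 came from the constant-dark air library A at CT4-8, the library that stood apart, with Fndc4 at 98.6 CPM, Slc25a25 at 467 and Tubb4b at 202. Other single libraries were Fndc4 at 59.3 CPM in constant-dark low-oxygen library A at CT16-20 and Tubb4b at 119.7 in constant-dark air library A at CT16-20. Cdkn1a stood at 214 CPM in light-dark low-oxygen library B at ZT4-8 and at 291 in light-dark low-oxygen library D at ZT16-20. Fkbp5 was at 29.4 in light-dark low-oxygen library B at ZT4-8, and Mt2 at 2248 in light-dark low-oxygen library B at ZT16-20. Arntl was at 1.27 in constant-dark air library C at CT4-8, and Ddit4 at 27.6 in light-dark air library C at ZT16-20. The total of 1 constant-dark low-oxygen library at CT16-20 was 2.03 M counts, away from its 3 companions.

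The interaction test called the regimen difference of 19 genes described above with both times averaged. On the log2 scale, light-dark minus constant-dark, it was positive for Fndc4 0.81, Slc25a25 1.31, Cdkn1a 0.96, Esyt1 0.63, Serhl 0.76, Junb 1.62, Spsb2 1.07, Psme2 0.79 and Tubb4b 0.82. It was negative for Rapgef4 -1.11, Tacc2 -1.32, Smek1 -0.77, Gfra1 -0.68, Fam47e -0.94, Fkbp5 -0.89, Mt2 -2.66, Cyp4a32 -1.74, Psme2b -1.37 and Gjb2 -0.51.

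The regimen difference itself differed between times, 16-20 h minus 4-8 h, for 21 genes that averaged 10 CPM or more and carried an established symbol. The log2 value was positive for Cog3 1.76, Fkbp5 2.89, Klf3 1.62, Lipg 2.72, Mfsd2a 2.35, Plin4 3.18, Plin5 1.91, Por 1.68, Rhobtb1 1.94, Serpina3m 1.85, St3gal5 1.99, Susd6 1.61, Tacc2 2.21, Tmem87b 2.15, Tns1 1.29 and Usp2 2.67. It was negative for Eps8l2 -1.57, Fam25c -2.14, Fbxo21 -1.95, Ranbp10 -1.17 and Spon2 -2.55. Plin4 and Plin5 coat lipid droplets, Lipg is a lipase of the vessel wall, and Mfsd2a carries lysophospholipids. Without the constant-dark air library that stood apart, Cog3 (1.68, adjusted p = 0.057) and Mfsd2a (2.42, adjusted p = 0.069) were not called, and the other 21 of the 23 genes were.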

How the results depend on the processing

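The repeated responses depended little on the processing: 1017 genes were called in both regimens in 1 direction, 750 to 1043 under the 6 other settings and 921 to 1167 with 1 library left out, and 511 to 743 and 640 to 876 repeated within 2-fold (739). Calls ran from 2016 to 2663 in light-dark and from 1469 to 1796 in constant-dark liver with 1 library left out, and opposite calls from 3 to 6. The regimen difference depended more on the processing than the repeated responses did. DESeq2 called 93 genes with both times averaged (62 positive, 31 negative, 20 of them among the 21), 261 at 4-8 h, 16 at 16-20 h and 72 for the difference between times (36 positive and 36 negative, against 17 and 6), and limma voom called 2 at 16-20 h. With a replicate block the averaged count was 9, 7 of them among the 21. The letters share only a name, since same-letter libraries had a median correlation of -0.0340 in light-dark and -0.00900 in constant-dark liver, and the block moved no other count of calls by over 1.5 times. Of the 20 differing genes with an established symbol, 7 were called under all 6 other settings.

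With 1 library left out, the averaged count ran from 2 to 36. It moved by over 1.5 times without light-dark air A (3), B (11) and D (3) and low-oxygen A (5), C (2) and D (2) at ZT4-8, air A (9) and D (2) and low-oxygen A (4), B (4) and D (36) at ZT16-20, constant-dark air B (10), C (4) and D (7) and low-oxygen A (7), C (2) and D (5) at CT4-8, and air A (9), B (2) and D (8) and low-oxygen B (7), C (2) and D (8) at CT16-20. The 4-8 h count ran from 56 to 210, with light-dark air A (73) and B (59), low-oxygen D (72), constant-dark air C (210) and low-oxygen C (56) and D (56) moving it so. The 16-20 h count ran from 0 to 7, above 0 without light-dark air C (5) and low-oxygen A (1) and D (7) at ZT16-20, constant-dark air A (4) and C (1) at CT4-8, and air A (3) and C (2) and low-oxygen C (5) and D (1) at CT16-20. The difference between times ran from 15 to 38, moved by light-dark air A at ZT16-20 (15), constant-dark air C (38) and low-oxygen C (15) at CT4-8 and air B at CT16-20 (15). The cause was not tested.

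Signs turned only for values near 0 that were not called. With voom Dbp in constant darkness was -0.069, the regimen difference of Hif1a 0.11 and Pck1 in light-dark liver -0.014, and with the replicate block Pck1 was -0.010. With 1 library left out, the constant-dark response of Arntl ran from -0.0023 to 0.30 and that of Dbp from -0.047 to 0.25, the light-dark response of Hif1a from -0.20 to 0.31 and that of Pck1 from -0.068 to 0.096, and the regimen difference of Cry1 from -0.27 to 0.057 and that of Hif1a from -0.46 to 0.054. The lower depth of the constant-dark libraries limits what can be shown there: thinned to 1647816 counts, light-dark calls fell from 2287 to 1570.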
